A study of Mus musculus with 12 samples.

Results

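The comparison described here is that of the cerebellum of Syt14 knockout mice with the cerebellum of wild-type mice. Its members are the 6 libraries of the cerebellum, 3 labelled as Syt14 knockout and 3 as wild type, out of 12 libraries in the series. The other 6 are hippocampus libraries of the same 6 animals. Poly(A) RNA of each dissected piece was sequenced with a strand-specific protocol, and the deposited values are raw counts of reads per gene. The 6 cerebellum libraries come from separate animals. The labels give no age, sex, strain or treatment and do not say which part of Syt14 was altered or whether the gene was lost in all cells. Levels are given as normalized CPM, the standard scaling of counts by library total, with totals adjusted by TMM factors (a correction for differences in library composition). A knockout or wild-type library is named by the replicate number of its label.

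Synaptotagmins are membrane proteins with paired C2 domains, and those of synaptic vesicles trigger release when calcium binds to these domains. Syt14 belongs to the members whose C2 domains do not bind calcium, and its human counterpart has been linked to a recessive spinocerebellar ataxia. The cerebellum is built of a few neuron types, the granule cells that carry incoming signals, the Purkinje cells that form the output of its cortex and the inhibitory interneurons between them, with Bergmann glia as its specialised astrocytes. Neurons that are strongly driven transcribe a set of early genes, among them the AP-1 factors of the Fos and Jun families and the Nr4a orphan nuclear receptors, and these in turn act on genes such as those of neuropeptides and trophic factors.

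The libraries held 24355572 to 34971359 counts each, and 17733 genes passed the filter on low counts. The libraries carried the transcripts of the cerebellum: Gabra6, a GABA receptor subunit of granule cells, lay between 582 and 658 CPM, and the Purkinje cell gene Calb1 between 949 and 1173 CPM. The libraries differed in how much neighbouring tissue they held. The 22 choroid plexus markers, of the tissue that secretes cerebrospinal fluid, summed to 1196, 2196 and 117 CPM in knockout libraries 1, 2 and 3 and to 2424, 3302 and 1357 CPM in the wild-type libraries. All 22 had a log2 fold change below 0, with a median of -1.05, and the groups overlapped for each. Knockout library 3 held the least by far: its transthyretin gene Ttr stood at 0.625 CPM, against 915 to 2542 CPM in the other libraries, and its folate receptor gene Folr1 at 0 counts. The 20 markers of monoamine and cholinergic neurons of the brainstem summed to 134, 156 and 83.3 CPM in the knockout and to 97.2, 92.2 and 86.2 CPM in the wild type. Of the 11 that passed the filter 10 lay above 0, with a median of 0.85. Knockout libraries 1 and 2 stood above all others, with the noradrenaline transporter gene Slc6a2 at 6.65 and 15.3 CPM, and knockout library 3 at the low end with 0.243 CPM. In that library 4 of the 20 markers had 0 counts. Knockout library 1 stood apart in a further set, with Nrgn (neurogranin) at 49.0 CPM against 2.55 to 3.92 CPM elsewhere and the glutamate transporter gene Slc17a6 at 75.2 CPM against 26.0 to 39.4 CPM. Of the 15 hindbrain Hox genes none passed the filter. The plot of marker levels by library shows the choroid plexus genes low in knockout library 3 and the brainstem genes high in knockout libraries 1 and 2.

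**Figure D1:**
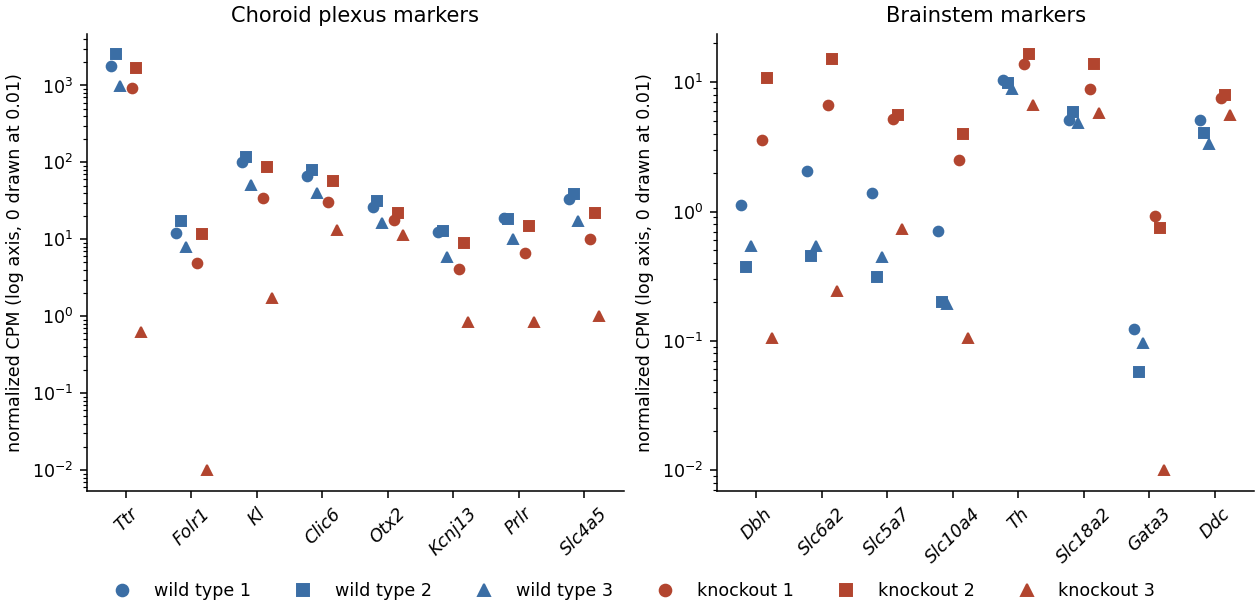
Normalized CPM (log axis, values of 0 drawn at 0.01) of 8 choroid plexus markers and 8 brainstem markers in each of the 3 wild-type (blue) and 3 knockout (red) cerebellum libraries, 1 point per library. Knockout library 3 is lowest in the choroid plexus markers, with Ttr at 0.625 CPM, and knockout libraries 1 and 2 are highest in Slc6a2, at 6.65 and 15.3 CPM.

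Syt14 itself, on the minus strand of chromosome 1 (GRCm38, chr1:192891233-193035775), was read at 32.0, 32.2 and 31.7 CPM in the knockout libraries and at 35.2, 35.4 and 40.1 CPM in the wild-type libraries. Every knockout library lay below every wild-type library, and the knockout mean was 86.7% of the wild-type mean. The log2 fold change was -0.20 ± 0.06 (SE), which did not pass the test over all genes (edgeR adjusted p = 0.644), and a two-sided exact permutation test of the 6 libraries gave p = 0.1, the smallest that 3 against 3 allow. The altered part of Syt14 is not given, so these gene-level counts cannot by themselves check the knockout label. In the hippocampus of the same animals Syt14 stood at 27.6, 26.7 and 29.3 CPM in the knockout against 36.7, 37.1 and 36.3 CPM. The log2 fold change there was -0.39, which did not pass (edgeR adjusted p = 0.686). Among 21 genes tested within 1 Mb of Syt14 on chromosome 1, 2 had knockout values below all wild-type values, where 5.98% of all genes tested did, and 1, the predicted gene Gm26879, had values above them (5.99% of all). Kcnh1, which encodes a voltage-gated potassium channel of the EAG type, ends 381 kb from Syt14 and stood at 64.7, 66.8 and 68.0 CPM in the knockout against 78.4, 86.5 and 79.6 CPM in the wild type. Hsd11b1, the enzyme that regenerates active glucocorticoid, lies 185.9 kb away on the other side and stood at 42.6, 46.8 and 46.7 against 49.99, 54.7 and 52.0 CPM. These 2 were the only ones of the 21 with an unadjusted edgeR p under 0.05, where 2.92% of all genes were lower at that p, and neither passed the adjustment over all genes (edgeR adjusted p = 0.269 for Kcnh1 and 0.628 for Hsd11b1). The window of 1 Mb was chosen after these values were seen.

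Over all 17733 genes tested, 2 rose in the knockout cerebellum and 0 fell at an edgeR adjusted p under 0.05, which is 0.0113% of the genes. The genes that rose are Cck and Fosl2. DESeq2 called 26 higher and 12 lower, and edgeR called 33 genes when knockout library 3 was left out and 4 when wild-type library 3 was, Cck and Fosl2 among them each time. At an unadjusted p under 0.05 there were 683 higher (3.85%) and 517 lower (2.92%), and 51% of all genes had a log2 fold change above 0. In bulk tissue more cells of a type and more RNA per cell cannot be told apart.

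Cck encodes cholecystokinin, a peptide that neurons release beside their fast transmitters. It lies on the minus strand of chromosome 9 (GRCm38, chr9:121489824-121495694). Its level was 56.9, 51.7 and 56.4 CPM in the knockout, against 30.9, 27.5 and 31.3 CPM in the wild type. All knockout libraries lay far above all wild-type libraries, and each group spread by only a few CPM. The means were 55.0 ± 2.85 and 29.9 ± 2.11 CPM (SD, n = 3), a 1.84-fold rise, with a log2 fold change of 0.89 ± 0.07 (SE) and an edgeR adjusted p of 0.00157. Knockout library 3, at the low end in brainstem markers, held about as much Cck as library 1. Compared alone with the wild type, library 3 gave a log2 fold change of 0.92 (edgeR adjusted p = 0.00425, where 0.339% of genes passed).

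Fosl2 encodes Fra-2, an AP-1 factor of the Fos family that persists longer after a stimulus than Fos. It lies on the plus strand of chromosome 5 (GRCm38, chr5:32135801-32157842). Fosl2 stood at 18.7, 18.8 and 21.3 CPM in the knockout libraries and 9.49, 8.79 and 8.42 CPM in the wild-type libraries. The groups stood apart by more than the whole level of the lowest wild-type library. The means of 19.6 ± 1.46 and 8.90 ± 0.547 CPM (SD, n = 3) gave a 2.20-fold rise, with a log2 fold change of 1.15 ± 0.09 (SE) and an edgeR adjusted p of 0.00157. Knockout library 3 held the most Fosl2 of all, and alone against the wild type it gave a log2 fold change of 1.26 (edgeR adjusted p = 0.00425).

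**Figure D2:**
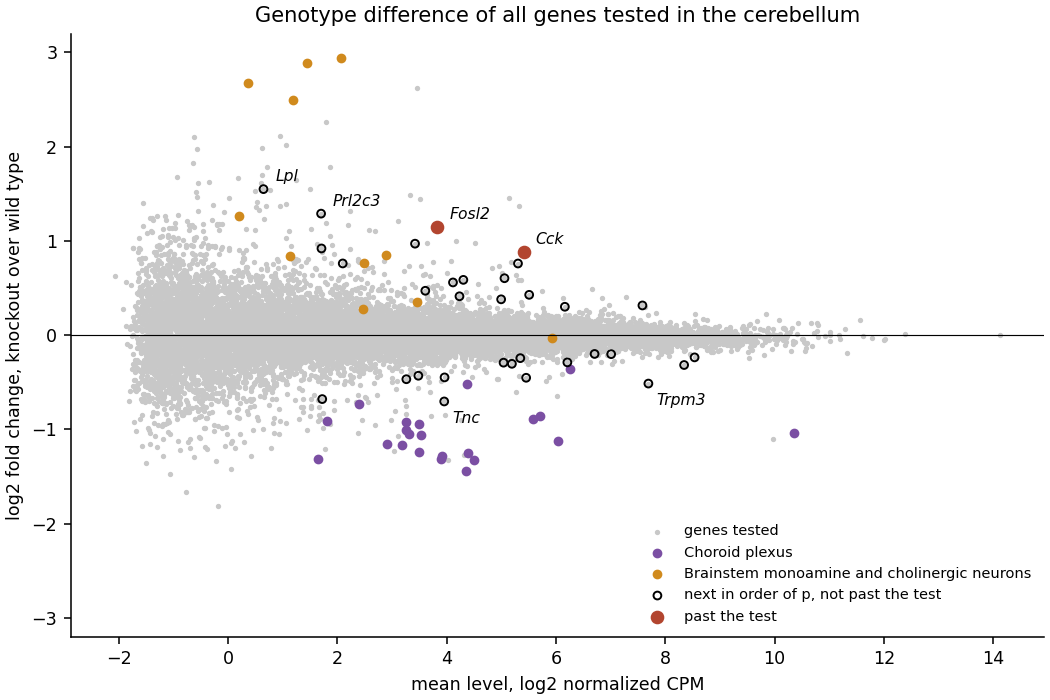
Log2 fold change of knockout over wild type (y axis) against mean level in log2 normalized CPM (x axis) for the 17733 genes tested in the cerebellum, 1 point per gene. Cck (0.89) and Fosl2 (1.15) are the genes past the test, the open circles are the genes next in order of p, the choroid plexus genes lie below 0 and 10 of 11 brainstem genes above it.

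The start regions of Cck, Fosl2 and the 3 Nr4a genes are shown because these genes lay higher in the knockout and most are textbook targets of activity-driven transcription. Each sequence runs 5′ to 3′ on the strand of the gene from 250 bases before the RefSeq transcript start to 50 after it (RefSeq, GRCm38.p6). The regions are chr9:121495645-121495944 on the minus strand for Cck, chr5:32136222-32136521 on the plus strand for Fosl2, chr15:101266596-101266895 on the plus strand for Nr4a1, chr2:57123954-57124253 on the minus strand for Nr4a2 and chr4:48045055-48045354 on the plus strand for Nr4a3. Capitals mark TGACG, the core of the cyclic AMP response element, found on either strand, so that it reads CGTCA where it lies on the opposite strand.
Cck: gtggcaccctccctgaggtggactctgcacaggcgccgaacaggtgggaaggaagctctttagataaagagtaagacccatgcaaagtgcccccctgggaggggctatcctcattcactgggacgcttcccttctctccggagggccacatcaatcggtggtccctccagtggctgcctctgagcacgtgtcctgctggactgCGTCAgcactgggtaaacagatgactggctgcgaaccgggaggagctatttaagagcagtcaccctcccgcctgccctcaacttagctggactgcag
Fosl2: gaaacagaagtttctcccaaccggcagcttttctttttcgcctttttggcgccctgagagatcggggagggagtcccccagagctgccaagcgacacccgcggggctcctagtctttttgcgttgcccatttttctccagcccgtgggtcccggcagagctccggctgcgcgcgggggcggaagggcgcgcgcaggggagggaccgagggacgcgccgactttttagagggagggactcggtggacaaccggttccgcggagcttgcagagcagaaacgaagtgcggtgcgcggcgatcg
Nr4a1: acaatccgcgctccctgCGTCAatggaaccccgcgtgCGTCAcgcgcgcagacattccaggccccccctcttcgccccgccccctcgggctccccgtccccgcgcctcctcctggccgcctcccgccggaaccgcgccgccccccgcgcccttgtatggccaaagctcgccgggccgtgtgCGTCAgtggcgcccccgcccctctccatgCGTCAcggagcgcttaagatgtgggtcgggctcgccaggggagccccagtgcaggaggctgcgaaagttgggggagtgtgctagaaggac
Nr4a2: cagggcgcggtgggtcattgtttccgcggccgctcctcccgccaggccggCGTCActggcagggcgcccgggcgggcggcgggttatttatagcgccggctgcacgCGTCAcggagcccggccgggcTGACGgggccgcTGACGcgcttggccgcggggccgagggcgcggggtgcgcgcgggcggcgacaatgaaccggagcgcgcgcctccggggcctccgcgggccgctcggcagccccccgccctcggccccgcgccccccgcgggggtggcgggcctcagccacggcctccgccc
Nr4a3: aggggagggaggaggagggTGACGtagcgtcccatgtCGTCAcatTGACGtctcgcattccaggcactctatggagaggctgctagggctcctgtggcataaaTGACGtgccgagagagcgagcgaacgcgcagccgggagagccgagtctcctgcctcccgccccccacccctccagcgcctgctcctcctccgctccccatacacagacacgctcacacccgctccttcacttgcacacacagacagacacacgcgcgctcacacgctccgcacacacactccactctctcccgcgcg
Cck had 1 such match, 47 bases before the start, Fosl2 had 0, and Nr4a1, Nr4a2 and Nr4a3 had 4 each. Over all 32851 promoters of the same length, 20.8% held TGACG at least once, and 0.231% held it at least 4 times. None of the 5 held the palindrome TGACGTCA, which contains TGACG on each strand and occurs in 1.79% of promoters, or the AP-1 site TGANTCA (both strands), which does not contain TGACG and occurs in 7.81%. Among the genes named for the lowest p, 4 of 12 higher and 6 of 13 lower genes with an entry held TGACG in a promoter, against 23% of all genes.

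The 3 Nr4a genes encode nuclear receptors that act without a known ligand and are induced within the first hour of neuronal activity. All 3 had knockout values above all wild-type values, where 5.99% of all genes tested did, and none passed the test. Nr4a2 stood at 47.0, 46.2 and 55.7 CPM in the knockout and at 33.9, 26.3 and 28.3 CPM in the wild type, a log2 fold change of 0.76 ± 0.10 (SE, edgeR adjusted p = 0.0559). Nr4a1 stood at 47.1, 44.7 and 56.5 CPM against 28.7, 30.0 and 40.0 CPM, or 0.59 ± 0.12 (edgeR adjusted p = 0.388). For both genes knockout library 3 was the highest, and for Nr4a1 the gap to the highest wild-type library was small. Nr4a3 stood at 56.7, 47.3 and 50.5 CPM against 28.2, 23.3 and 5.74 CPM. Wild-type library 3 was far below the other wild-type libraries there, so the log2 fold change of 1.45 ± 0.38 carried a wide error (edgeR adjusted p = 0.602). Without that library, a setting in which 0.0221% of genes passed, Nr4a3 did so at a log2 fold change of 1.01 (edgeR adjusted p = 0.0228). Leaving out any of the other 5 libraries gave 1.37 to 1.82 and edgeR adjusted p of 0.23 to 0.998.

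Of the 9 AP-1 genes listed, 8 were tested, and 6 had a log2 fold change above 0, with a median of 0.33 where the median of all genes tested was 0.0025. The size of the AP-1 median depended on the setting. It was 0.15 with the choroid plexus score (the mean log2 CPM of those markers) as a covariate and 0.16 without knockout library 3. With library 3 alone against the wild type it was 0.58. Fosl2 alone passed. Fos, the founding member and the fastest to be induced, stood at 44.1, 42.0 and 50.7 CPM in the knockout and at 21.1, 17.9 and 41.3 CPM in the wild type. The log2 fold change of 0.77 ± 0.24 did not pass (edgeR adjusted p = 0.644). Wild-type library 3 came close to the knockout libraries but lay below each of them. Without that library Fos passed at a log2 fold change of 1.24 (edgeR adjusted p = 0.00739), and without any of the other 5 it did not, at 0.54 to 0.83 and edgeR adjusted p of 0.418 to 0.998. Fosb, whose truncated form accumulates with repeated activity, was read at 1.77, 1.86 and 1.98 against 0.949, 0.600 and 2.10 CPM, again with wild-type library 3 the highest of its group. Atf3, a stress-induced relative, stood at 1.73, 2.15 and 2.85 against 1.78, 1.68 and 1.40 CPM. Among the Jun genes, the partners of the Fos proteins, Jun stood at 83.2, 76.7 and 109 against 85.1, 74.1 and 79.0 CPM and Jund at 93.4, 87.98 and 102 against 89.4, 90.4 and 85.2 CPM. The groups overlapped for Jun and Jund, and knockout library 3 was the highest for each. Junb and Fosl1 had log2 fold changes below 0, the lower of them -0.10. Their log2 ratios to the wild-type mean were -0.21 and -0.13 in knockout libraries 1 and 2, and 0.09 and -0.003 in library 3.

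**Figure D3:**
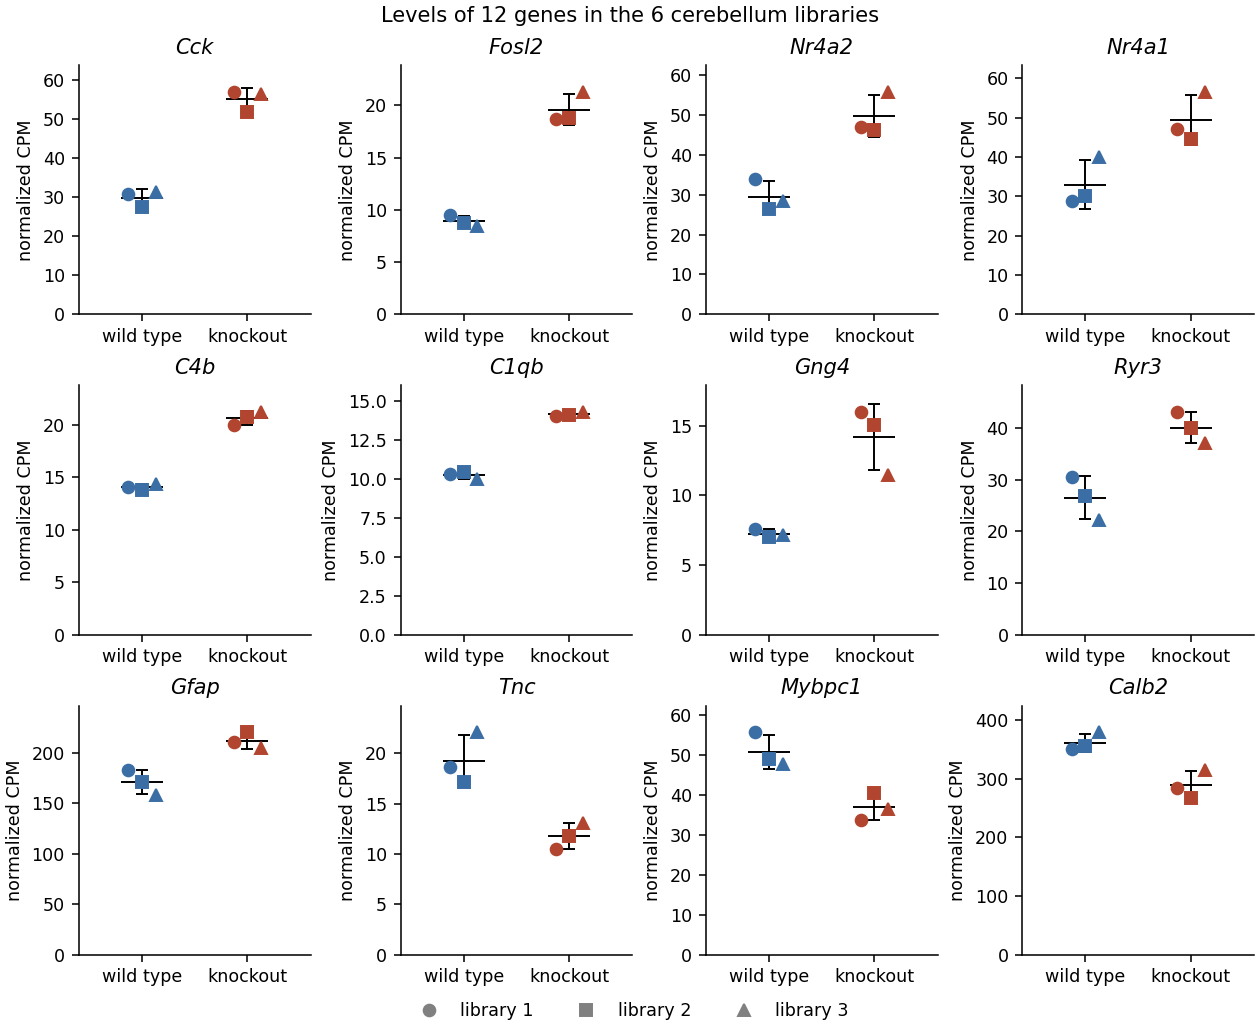
Normalized CPM (y axes, from 0) of 12 genes in the wild-type (blue) and knockout (red) cerebellum libraries, 1 symbol per library, with the mean and SD of 3 libraries as lines. Cck and Fosl2 passed the test. The other 10 did not, although their groups do not overlap, and Gng4 is lowest of the knockout in library 3, at 11.5 CPM.

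Of 13 other early transcription factors tested, 10 had a log2 fold change above 0. In the knockout 2 lay above all wild-type libraries and 2 below, against 5.99% and 5.98% of all genes tested. Klf2, a factor best known from blood vessel endothelium, stood at 10.5, 13.4 and 13.7 CPM in the knockout and at 9.08, 10.5 and 6.89 CPM in the wild type. Klf4 of the same family stood at 8.92, 8.95 and 8.65 against 7.80, 7.19 and 5.26 CPM. Both were lowest in wild-type library 3. Ier5, an immediate early gene, went the other way, at 20.6, 19.6 and 19.3 against 23.9, 21.6 and 25.6 CPM. Npas4, which neurons induce upon calcium entry, stood at 6.69, 4.91 and 4.97 against 2.02, 2.63 and 5.04 CPM. Wild-type library 3 lay within the knockout range there, while for Fos it lay below that range. Of 15 effector genes of activity, 11 lay above 0 with a median of 0.07, and 1, the pseudokinase gene Trib1, had groups that do not overlap, at 27.0, 26.8 and 27.4 against 24.3, 22.1 and 18.0 CPM. The feedback inhibitors of ERK signalling had a median of 0.07 over 14 genes. There Spry4 stood at 37.6, 36.5 and 30.8 against 30.7, 27.3 and 16.6 CPM, with knockout library 3 and wild-type library 1 nearly equal, and the phosphatase gene Dusp1 at 57.8, 52.9 and 76.1 against 37.2, 35.2 and 62.7 CPM, with library 3 the highest of each genotype. None of these genes passed the test.

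Neuropeptide precursors beside Cck were mostly low in this tissue, and 15 of the 28 listed passed the filter. Of these, 12 had a log2 fold change above 0, with a median of 0.60. Above all wild-type libraries lay 2 and below them 2, against 5.99% and 5.98% of all genes tested. Cck alone passed. Adcyap1, which encodes the peptide PACAP, was the other with knockout values above the wild type, at 12.5, 13.1 and 11.3 CPM against 10.8, 8.31 and 9.82 CPM. Tac1, the precursor of substance P, stood at 5.27, 1.79 and 1.29 against 1.65, 0.485 and 1.18 CPM, and Pdyn, the precursor of dynorphin, at 1.27, 1.003 and 0.278 against 0.413, 0.428 and 0.287 CPM. Both were highest in knockout libraries 1 and 2, the libraries richest in brainstem markers, and in knockout library 3 they lay within or below the wild-type range. In library 1, 11 of the 15 precursors lay above every wild-type library, in library 2, 12 did, and in library 3, 2 did. Over all genes tested these shares were 25.7%, 25.9% and 25.5%. With the brainstem score (the mean log2 CPM of these markers) as a covariate the median was 0.04, and with library 3 alone against the wild type it was -0.07. The part of brainstem tissue in the values of the other precursors was not tested beyond that.

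The granins and the enzymes that process prohormones fill and mature dense-core vesicles, from which peptides such as cholecystokinin are released. Of 11 tested, 9 had a log2 fold change above 0, with a median of 0.14, and none passed the test. Scg2, the precursor of secretoneurin, stood at 201, 178 and 152 CPM in the knockout and at 141, 134 and 126 CPM in the wild type, with a log2 fold change of 0.41 ± 0.09 (SE, edgeR adjusted p = 0.417). Chga, or chromogranin A, stood at 124, 112 and 111 against 102, 108 and 105 CPM. Vgf, a secreted peptide precursor that follows neurotrophin signalling, stood at 49.9, 42.3 and 25.6 against 29.4, 22.7 and 23.3 CPM. For Scg2 and Vgf the order of the knockout libraries was the same, with library 3, the one low in brainstem markers, nearest to the wild type. Library 3 alone gave a log2 fold change of 0.19 for Scg2 and 0.04 for Vgf.

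Receptors for neuropeptides had a median log2 fold change of 0.20 over 23 genes, with 18 above 0, and of -0.03 with the brainstem score as a covariate. Oprk1, the kappa opioid receptor, stood at 2.50, 2.51 and 1.18 CPM against 0.826, 1.09 and 0.478 CPM, and Npy1r, a receptor of neuropeptide Y, at 3.58, 1.86 and 1.74 against 1.45, 1.43 and 1.28 CPM. Both had groups that do not overlap and knockout library 3 nearest to the wild type. The somatostatin receptor gene Sstr3 lay below the wild type, at 12.4, 11.6 and 13.9 against 13.95, 14.8 and 18.4 CPM. Cckbr, the main cholecystokinin receptor of the brain, stood at 2.88, 2.44 and 1.598 against 1.45, 1.80 and 1.53 CPM, and the groups overlapped. Among 9 neurotrophins and their receptors, 4 lay above 0 and 5 below, with a median of -0.001. Above all wild-type libraries lay 3 and below them 0, against 5.99% and 5.98% of all genes tested. Of the 3, Bdnf, the brain-derived neurotrophic factor, stood at 25.5, 23.8 and 21.8 against 19.0, 17.2 and 15.9 CPM. Its groups did not overlap, and the log2 fold change of 0.46 ± 0.09 (SE) did not pass (edgeR adjusted p = 0.339). Sorcs1, a sorting receptor related to the sortilins, stood at 21.2, 20.8 and 22.4 against 16.6, 15.5 and 16.6 CPM (log2 fold change 0.41 ± 0.07, edgeR adjusted p = 0.269). Ntf3, or neurotrophin 3, stood at 3.998, 3.72 and 4.83 against 3.43, 3.28 and 3.38 CPM. The lowest log2 fold change of the list was that of Ngfr, the receptor shared by the neurotrophins, at 6.73, 8.56 and 5.21 against 8.42, 9.36 and 8.19 CPM, with overlapping groups.

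Complement is the cascade by which microglia and astrocytes tag cells and synapses. Of 21 genes tested, 16 had a log2 fold change above 0 and 5 below, with a median of 0.24, and 8 lay in the knockout above all wild-type libraries, against 5.99% of all genes, and 0 below. None passed the test. C4b, the complement factor cleaved to start opsonisation, stood at 19.95, 20.8 and 21.2 CPM in the knockout and at 14.03, 13.8 and 14.3 CPM in the wild type. The spread within each group was small, and the log2 fold change of 0.56 ± 0.07 (SE) missed the threshold (edgeR adjusted p = 0.0559). C4b has a close copy, C4a, and reads may have been split between them. The 3 chains of C1q, which starts the cascade, had log2 fold changes of 0.39 to 0.51, and none passed. C1qb stood at 14.1, 14.1 and 14.3 against 10.4, 10.5 and 9.98 CPM. C1qa stood at 14.2, 15.97 and 14.6 against 8.59, 11.5 and 11.3 CPM, and C1qc at 15.8, 13.7 and 12.96 against 10.5, 11.3 and 10.6 CPM. Knockout library 3, low in brainstem and choroid plexus markers, lay above every wild-type library in C4b and the C1q genes. Over the list, knockout library 3 lay above every wild-type library in 11 of the 21 and below every one in 4. Over all genes tested these shares were 25.5% and 26%. Of the 4 that lay below, Cd59a, an inhibitor of the final complex, stood at 13.95, 13.4 and 7.99 against 13.1, 16.1 and 10.4 CPM.

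Of 26 microglia markers without a shared member in the complement list, 24 had a log2 fold change above 0, with a median of 0.18, 11 lay above all wild-type libraries and 0 below. The shares over all genes tested were 51% above 0, 5.99% above all wild-type libraries and 5.98% below. None passed the test. Fcrls, a marker of resident microglia, stood at 6.42, 6.41 and 5.14 CPM against 4.46, 3.91 and 3.57 CPM, and Tyrobp, the adaptor of Trem2, at 3.19, 3.55 and 2.88 against 1.69, 2.06 and 2.42 CPM. Trem2, a lipid-sensing receptor, stood at 5.65, 5.05 and 4.93 against 2.11, 3.25 and 4.69 CPM, where wild-type library 3 nearly reached the knockout. Tyrobp had the highest log2 fold change of the list, 0.64, and other markers lay near the wild type. For Cx3cr1, P2ry12 and Tmem119 the log2 ratios to the wild-type mean were 0.08, 0.03 and -0.02 in knockout libraries 1 and 2. In library 3 they were 0.02, 0.13 and -0.06. Summed over the list, the libraries held 231, 249.4 and 219 CPM in the knockout and 203, 203 and 213 CPM in the wild type, so the groups did not overlap and were closest in library 3 of each. Among 26 glial reaction genes, 17 lay above 0 with a median of 0.07, which was -0.04 with library 3 alone. The astrocyte filament gene Gfap stood at 211, 221 and 205 against 183.3, 172 and 159 CPM (log2 fold change 0.32 ± 0.06, edgeR adjusted p = 0.276), and the lysosomal gene Cd68 at 3.58, 3.47 and 4.13 against 2.27, 2.14 and 2.46 CPM. Fcgr1, a high-affinity receptor for antibodies on myeloid cells, stood at 3.50, 4.83 and 4.52 against 1.98, 2.20 and 2.61 CPM (0.92 ± 0.18, edgeR adjusted p = 0.313).

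Oligodendrocyte genes, which make and hold myelin, had small log2 fold changes, from -0.16 to 0.24, most of them above 0. Of 20 tested, 17 had a log2 fold change above 0, with a median of 0.13, 6 lay above all wild-type libraries (5.99% of all genes tested did) and 0 below, and none passed the test. Mal, a myelin membrane protein gene, stood at 161, 165 and 151 CPM against 138, 146 and 138 CPM, and Ermn, a cytoskeletal gene of myelinating cells, at 91.1, 94.04 and 84.6 against 76, 80.6 and 81.5 CPM. Cldn11, the tight junction gene of myelin, stood at 98.0, 101 and 96.6 against 86.4, 94.4 and 85.5 CPM. Mbp, the myelin basic protein gene, overlapped by a narrow margin, at 3145, 3408 and 3051 against 2751, 3054 and 2807 CPM. Knockout library 2 was the highest in each of these 4, and knockout library 3 the lowest of its group. Among 16 markers of oligodendrocyte precursors, 11 lay above 0 with a median of 0.05. Of these 16, 6 lay above and 2 below all wild-type libraries, against 5.99% and 5.98% of all genes tested. Gpr17, of cells about to mature, stood at 21.8, 21.9 and 20.6 against 18.9, 17.0 and 15.4 CPM, and the lineage factor Olig1 at 83.5, 84.3 and 78.2 against 73.2, 72.5 and 74.0 CPM.

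**Figure D4:**
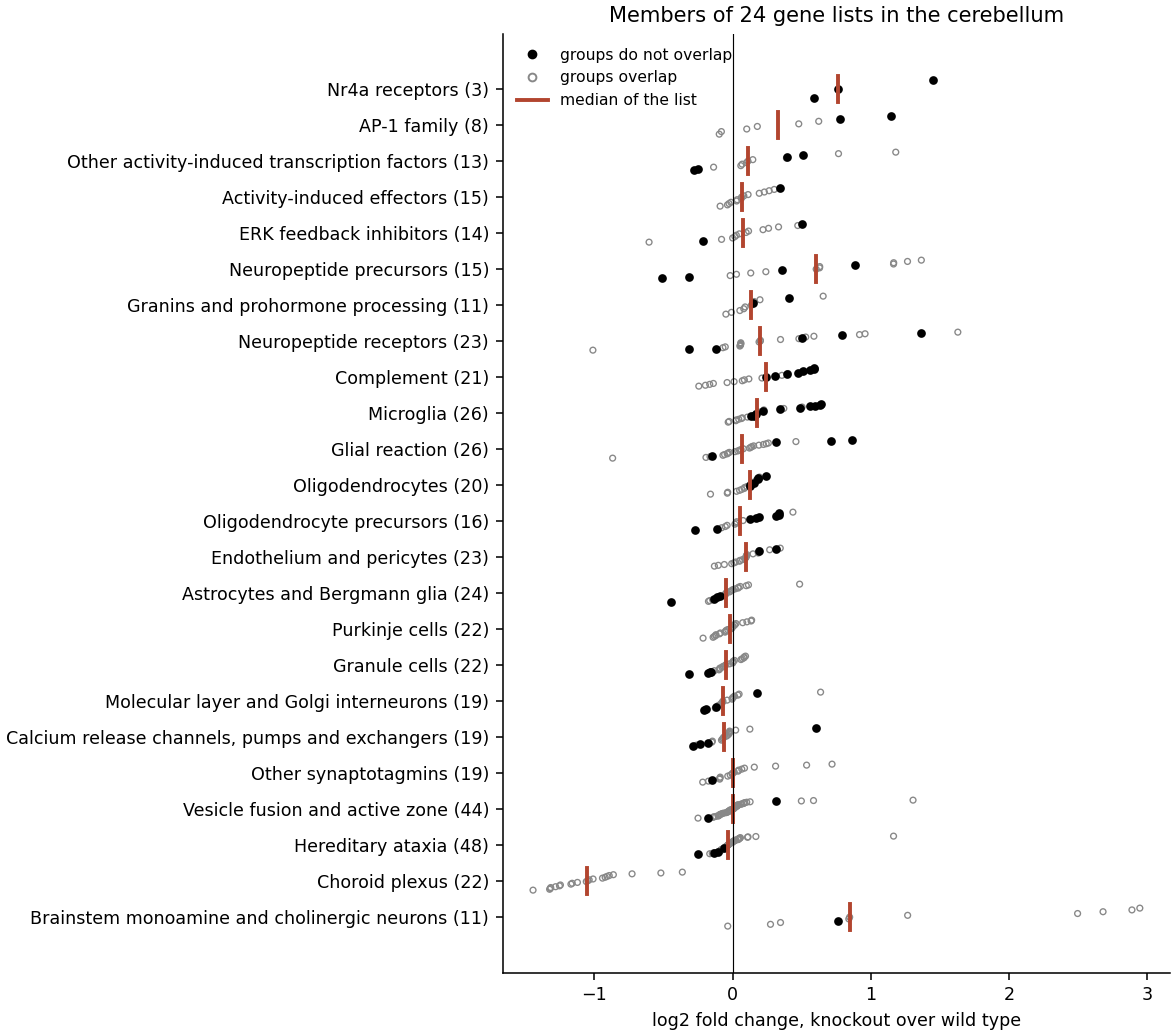
Log2 fold change of knockout over wild type (x axis) for the tested members of 24 gene lists (1 row per list, number of members in brackets), filled where the knockout and wild-type libraries do not overlap, with the median as a red bar. The Nr4a, complement and microglia members lie mostly to the right of 0, the Purkinje cell members lie around 0 with overlapping groups, and the choroid plexus members lie to the left.

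The neuron types of the cerebellar cortex lay close to 0. Of 22 Purkinje cell markers, 9 had a log2 fold change above 0, with a median of -0.02, and none had groups that do not overlap. The sign of that median was not stable, at 0.08 with the brainstem score as a covariate. Pcp2 stood at 178, 211 and 199 CPM against 168, 184.7 and 182.7 CPM, and the glutamate transporter gene Slc1a6 at 175, 185.1 and 198 against 171, 170 and 180 CPM. Both lay above 0, and Pcp2 had the highest log2 fold change of the list, 0.14. Below 0 were 13 of the 22, the lowest at -0.21, among them Calb1 at -0.05. Knockout library 1 held the least of the summed Purkinje cell markers, at 9632 CPM, and the other 5 libraries held 10080 to 12280 CPM. Granule cell markers had a median of -0.05 over 22 genes, with 9 above 0, and none passed the test. Of the 22, 0 lay above and 4 below all wild-type libraries, against 5.99% and 5.98% of all genes tested. The 4 are Calb2, Chn2, Etv1 and Zic2. Calb2, or calretinin, a calcium buffer of granule cells and unipolar brush cells, stood at 284, 267.7 and 315 CPM against 350, 355 and 379 CPM (log2 fold change -0.32 ± 0.06, edgeR adjusted p = 0.313). Chn2, which encodes the Rac regulator beta-chimaerin, stood at 673, 648 and 743 against 811, 747 and 790 CPM. For both genes knockout library 3 was the highest of its group. Summed, granule cell markers were at 9520, 8901 and 10450 CPM in the knockout and 10340, 9759 and 10290 CPM in the wild type. Knockout library 3 thus lay just above the wild-type range. With library 3 alone the median of the list was 0.05.

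Among 19 markers of molecular layer and Golgi interneurons, 6 lay above 0, with a median of -0.07, 1 above and 3 below all wild-type libraries. The shares over all genes tested were 5.99% above all wild-type libraries and 5.98% below. Nos1, the neuronal nitric oxide synthase, stood at 170, 184.7 and 197 CPM against 204, 201 and 226 CPM, and the kinase gene Prkcd at 61.7, 74.9 and 74.1 against 80.0, 85.3 and 78.2 CPM. Markers of astrocytes and Bergmann glia had a median of -0.05 over 24 genes, with 8 above 0, and 0 above and 4 below all wild-type libraries. Fabp7, a fatty acid carrier of Bergmann glia, stood at 18.8, 19.6 and 17.4 against 22.6, 22.5 and 31.1 CPM. Aldoc, an aldolase of astrocytes and of zebrin-positive Purkinje cells, stood at 1542, 1609 and 1588 against 1746, 1734 and 1657 CPM. The GABA transporter gene Slc6a11 went the other way in part, at 158, 119 and 77.7 against 87.0, 79.8 and 87.3 CPM, high in the libraries rich in brainstem markers and lowest of all in knockout library 3. The unipolar brush cell factor Eomes stood at 31.3, 33.3 and 19.7 against 23.3, 23.1 and 11.5 CPM, lowest in library 3 of each genotype. None of these genes passed the test.

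Genes of calcium release, pumping and exchange had 3 of 19 members above 0, with a median of -0.06 (0.03 with library 3 alone), and none passed the test. Ryr3, a ryanodine receptor that releases calcium from the endoplasmic reticulum, was the 1 with knockout values above all wild-type values, at 43.1, 40.0 and 37.2 CPM against 30.5, 27.0 and 22.2 CPM (log2 fold change 0.60 ± 0.11, edgeR adjusted p = 0.269). Below all wild-type values were 3 members, Atp2b3, a plasma membrane calcium pump of granule and Purkinje cells, Slc8a2, a sodium-calcium exchanger, and Orai1, the pore of store-operated calcium entry. Atp2b3 stood at 330, 338 and 354 against 415, 385 and 407 CPM (-0.24 ± 0.05, edgeR adjusted p = 0.406), and Slc8a2 at 174, 161 and 188.9 against 210, 193 and 191.4 CPM. Orai1 stood at 7.65, 6.88 and 7.99 against 9.04, 9.73 and 8.77 CPM. Knockout library 3 came close to the lowest wild-type library for Slc8a2. Of 21 EF-hand calcium-binding proteins, 2 lay below all wild-type libraries, Calb2 and Necab3, the latter at 26.8, 24.9 and 28.6 against 32.5, 30.0 and 33.4 CPM. Beside the counts of both lists, the shares over all genes tested were 5.99% above all wild-type libraries and 5.98% below. Of 21 voltage-gated calcium channel genes, Cacna1h, a T-type channel, had the smallest p, at 10.3, 6.77 and 6.01 against 5.16, 4.17 and 4.75 CPM. Among 42 potassium and HCN channel genes, Kcna4, of the A-type current, stood at 4.81, 4.94 and 3.13 against 2.52, 2.40 and 2.39 CPM. Kcnc1, a Kv3 channel of fast-spiking neurons and granule cells, stood at 795, 769 and 909 against 955, 939 and 978 CPM. Gng4, a gamma subunit of G proteins, had a log2 fold change of 0.97 ± 0.13 (SE, edgeR adjusted p = 0.0559), at 15.99, 15.04 and 11.5 against 7.60, 7.02 and 7.17 CPM. Its knockout values were well above the wild type, least so in library 3, which alone gave 0.66.

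The 19 other synaptotagmins tested had a median log2 fold change of 0.0002, with 10 above 0, and 1, Syt2, had knockout values below all wild-type values. Syt2, a fast calcium sensor of the hindbrain, stood at 598, 583 and 633 CPM against 658, 655 and 706 CPM. The 44 genes of vesicle fusion and the active zone had a median of 0.003, with 22 above 0, and 1 above and 1 below all wild-type libraries. These were the synaptic vesicle proteins Sv2c, at 128, 141 and 148 against 102, 108 and 126 CPM, and Sv2b, at 242, 234 and 257 against 284, 265 and 282 CPM. Among 48 hereditary ataxia genes, 15 lay above 0, with a median of -0.03, and 4 lay below all wild-type libraries. Of these Fgf14, the gene of an ataxia with tremor whose protein binds sodium channels, stood at 70.5, 73.0 and 71.3 against 81.3, 75.9 and 98.9 CPM. None of the genes of these 3 lists passed the test. Over all genes tested, 5.99% lay above all wild-type libraries and 5.98% below them.

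The rule that ordered genes by p named 15 higher and 15 lower genes beyond Cck and Fosl2, and none of the 30 passed the test. The higher ones had log2 fold changes of 0.30 to 1.55 and edgeR adjusted p of 0.0559 to 0.313, the lower ones -0.70 to -0.20 and 0.217 to 0.490. Among the higher genes not yet described, Lpl, lipoprotein lipase, stood at 3.08, 2.33 and 1.63 CPM against 0.743, 0.999 and 0.638 CPM, with library 3 the lowest of the knockout. Prl2c3, a prolactin family gene with near-identical copies among which reads may be split, stood at 3.73, 4.62 and 5.52 against 1.78, 2.08 and 1.82 CPM (log2 fold change 1.29 ± 0.18, edgeR adjusted p = 0.0753). Bcl6b, Elfn2, Fam174b and Fgf11 had log2 fold changes of 0.76, 0.38, 0.43 and 0.30. Elfn2 encodes a synaptic adhesion protein and Fgf11 an intracellular relative of the fibroblast growth factors.

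Among the lower genes, Tnc had the smallest p. It encodes tenascin C, a matrix glycoprotein made by astrocytes, and stood at 10.5, 11.8 and 13.1 CPM against 18.6, 17.2 and 22.1 CPM, with a log2 fold change of -0.70 ± 0.11 (SE, edgeR adjusted p = 0.217). Mybpc1, a myosin-binding protein gene, stood at 33.9, 40.5 and 36.5 against 55.7, 49.0 and 47.7 CPM, with a gap of some CPM between the groups. Trpm3, a heat- and steroid-sensitive cation channel that choroid plexus epithelium also expresses, stood at 161, 203 and 145 against 258, 236 and 237 CPM. Its lowest value was that of knockout library 3, where the choroid plexus markers summed to 117 CPM, and with the choroid plexus score as a covariate its log2 fold change went from -0.51 to -0.35. The part of choroid plexus in this difference was not tested beyond that. Among the remaining lower genes, Cpne2, Ptprj, Nphp4 and Akt2 had log2 fold changes of -0.30, -0.20, -0.45 and -0.20, and Lars2, Dact1, Abcc12, Nr6a1 and Cabp2 of -0.24, -0.29, -0.43, -0.47 and -0.68. Akt2 encodes a kinase of insulin signalling, Ptprj a receptor tyrosine phosphatase and Cabp2 a calmodulin-like calcium-binding protein.

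Knockout library 3 was the only knockout library low in brainstem markers, so its values are set beside those of libraries 1 and 2. The log2 ratio to the wild-type mean in library 3 and that in libraries 1 and 2 were 0.92 and 0.86 for Cck, 1.26 and 1.08 for Fosl2, and 1.41 and 1.45 for Nr4a3. They were 0.92 and 0.66 for Nr4a2 and 0.59 and 0.53 for C4b. For these genes library 3 stood as high as or near the other knockout libraries. In contrast the ratios were 0.03 and 0.88 for Vgf, 0.22 and 1.67 for Tac1, and 0.19 and 0.50 for Scg2. Other genes next in order of p went either way. The log2 fold changes of Gng4, Ryr3 and Lpl were 0.66, 0.49 and 1.03 with library 3 alone. With all 3 knockout libraries they were 0.97, 0.60 and 1.55. Prl2c3 went the other way, at 1.54 with library 3 alone and 1.29 with all 3. With library 3 alone against the 3 wild-type libraries the Nr4a list had a median of 0.92, complement 0.21, microglia 0.07 and oligodendrocytes 0.07. Library 3 alone has no replicate of its own, so the spread in that fit rests on the wild-type libraries.

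**Figure D5:**
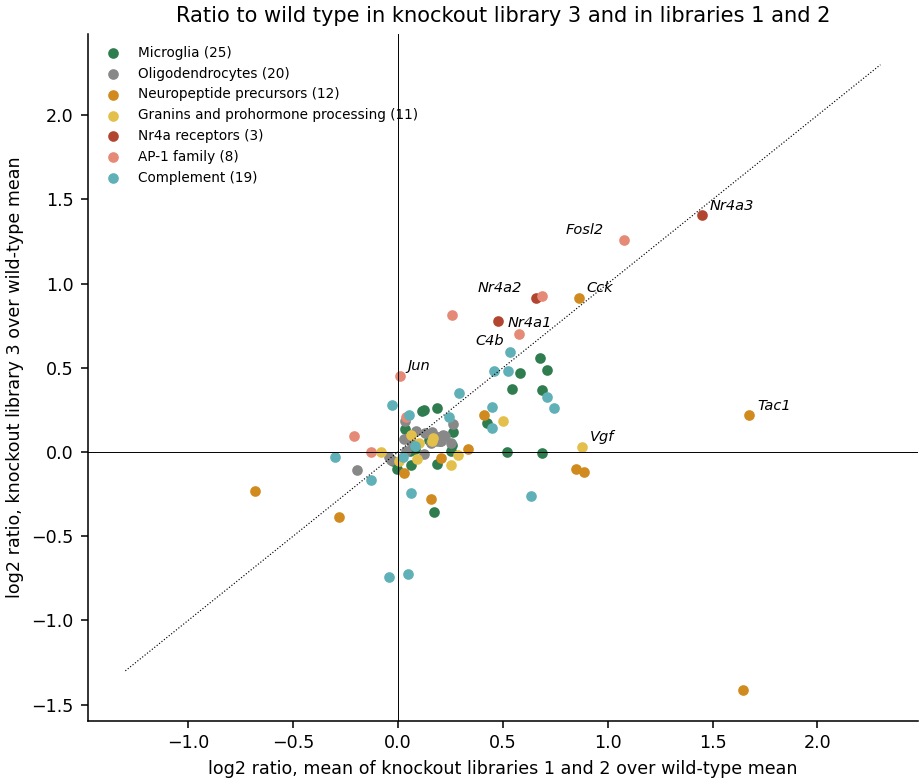
Log2 ratio to the wild-type mean in knockout library 3 (y axis) against that in the mean of knockout libraries 1 and 2 (x axis), 1 point per gene of 7 lists, with the line of equal ratios dotted. Cck, Fosl2 and the Nr4a genes lie near or above the line, and Vgf and Tac1 lie near 0 on the y axis.

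The genotype difference of Cck and of Fosl2 was not the same in the hippocampus of the same animals. In a fit of the 12 libraries with the animal as a block, 2 of 19027 genes (0.0105%) had a difference that differed between the tissues, and these were Cck and Fosl2. In the hippocampus Cck stood at 235, 234 and 241 CPM in the knockout and at 236, 225 and 250 CPM in the wild type, a log2 fold change of -0.0003, with overlapping groups. The difference in the cerebellum exceeded that in the hippocampus by 0.89 ± 0.07 (log2, SE; edgeR adjusted p = 0.00116). For Fosl2 the hippocampus held 70.3, 74.3 and 65.1 against 65.4, 66.2 and 63.7 CPM, a log2 fold change of 0.11, and the difference between tissues was 1.05 ± 0.11 (edgeR adjusted p = 0.0155). That of Cck passed in all 10 alternative settings and that of Fosl2 in 7 of 10, with an adjusted p of up to 0.215. For C4b, Nr4a2, Nr4a3 and Gng4 the difference between tissues was 0.65, 0.61, 1.46 and 1.07 and did not pass (edgeR adjusted p = 0.439, 0.816, 0.846 and 0.886). Nr4a1 had log2 fold changes of 0.59 in the cerebellum and 0.41 in the hippocampus, and Fos of 0.77 and 0.38.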

How the data were processed

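Per the labels' protocols, RNA was extracted with Trizol and poly(A)-selected, dUTP strand-specific libraries were made. The authors deposited raw read counts per gene, trimmed, aligned to mm10/GRCm38 and counted with Trimmomatic 0.39, STAR 2.7.10 and featureCounts 2.0.3, per the submitters' processing notes. For the annotation release and strand setting: not given in the sources used here. Of 54446 gene identifiers, 54409 were matched to GENCODE M21 names. No replicate libraries were identical, and the replicates are separate animals by their numbers.

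Counts were tested with edgeR 4.0.16 (quasi-likelihood, TMM factors, filterByExpr with a minimum count of 10 and a total of 15, Benjamini-Hochberg threshold 0.05) in R 4.3.3, over the 6 cerebellum libraries. The test of the difference between tissues used all 12 libraries with the animal as a block. DESeq2 1.42.0 and limma-voom (limma 3.58.1) were alternatives. Folds carry a standard error from the F statistic. A brainstem and a choroid plexus score, the mean log2 CPM (prior count 2) of each list, served as covariates in alternatives. The depth of 24355572 to 34971359 counts puts 3 counts at 0.0858 to 0.123 CPM. The scripts were tested on simulated data, with 50 genes changed at each of 1.25-, 1.5-, 2- and 4-fold. In the cerebellum comparison 20, 32, 43 and 50 of them were recovered, with 13 false calls. In the difference between tissues 5, 22, 39 and 46 were, with 10 false calls. Small changes were therefore often missed.

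Members and lists were chosen with earlier results of these data known. Named were Syt14, every gene past the test, then by unadjusted p up to 15 genes in each direction with groups that do not overlap and a mean of 1 CPM or more (predicted genes passed over), and from each list up to 4 members by p and the most abundant. Other named genes (Jun, Fosb, Npas4, Cckbr, Trem2, Hsd11b1 and the like), and library 3 alone against the wild type, were chosen after their values were seen. Promoters are from RefSeq (GRCm38.p6). Some genes that the rule names are not reported here.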

Additional observations from a re-analysis of the deposited data

Results flagged for a closer look

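The knockout effect on Cck and on Fosl2 differed between the tissues in the test of that difference itself. The log2 fold change in the cerebellum exceeded that in the hippocampus by 0.89 for Cck and by 1.05 for Fosl2. The difference passed in all 10 alternative settings for Cck and in only 7 of 10 for Fosl2. In each of the 3 knockout animals the cerebellum held more of both transcripts than any wild-type cerebellum. In the hippocampus of the same animals the groups overlapped for both genes.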

How the results depend on the processing

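Cck and Fosl2 passed in all 16 alternative settings, at log2 fold changes of 0.82 to 0.93 and 1.08 to 1.26. The number of genes past the threshold, 2 as reported, was more variable: 38 with DESeq2 (26 higher, 12 lower), 4 with all 12 libraries in the fit, 11 with the brainstem score and 26 with the choroid plexus score as a covariate, 417 with no filter on low counts, and 64 (7 higher, 57 lower) with knockout library 3 alone, a setting chosen after seeing the data. With a stricter filter, limma-voom or the size factors of DESeq2 it stayed at 2. Leaving out 1 library gave 2 to 33 genes, the 33 when knockout library 3 was omitted, and 4 when wild-type library 3 was. The difference between tissues gave 5 genes with DESeq2, 273 with no filter and 1 to 52 when 1 animal was left out, with 52 without knockout animal 3 and 1 without wild-type animal 2 or 3. The cause of these shifts was not tested. With the replicate number as a block the cerebellum gave 36 genes (20 higher, 16 lower). The correlation of the deviations of same-numbered libraries was 0.095, 0.18 and 0.28, so the numbers were not taken as pairs, although each library correlated best with its own number, a hint from the data and not the design. Without the animal as a block, the difference between tissues gave 2 genes. Over the 109 genes followed singly, 1592 of 1742 values kept direction and call, 134 newly passed and 16 changed sign. These were Jun and Cd59a with the choroid plexus score (-0.043 and 0.20), Calb1 and Gabra6 with the brainstem score (0.022 and 0.0041), Calb1 when 1 library was left out (-0.095 to 0.029, above 0 without knockout library 1 or wild-type library 3), likewise Cd59a (-0.31 to 0.053, above 0 without knockout library 3 or wild-type library 2) and Tcf7l2 (-0.11 to 1.87, below 0 without knockout library 1), and with knockout library 3 alone Pdyn (-0.43), Cckbr (-0.0011), Calb1 (0.045), Gabra6 (0.049), Slc6a11 (-0.12), Tcf7l2 (-0.057) and Cyp51 (-0.0073). At this depth 3 counts correspond to 0.0858 to 0.123 CPM.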

Other observations

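None of the genes in the lists below passed the test. Among 21 circadian clock genes, Rorb stood at 17.0, 14.8 and 17.0 CPM in the knockout and 12.96, 14.6 and 13.7 CPM in the wild type. The period gene Per1 stood at 124, 121 and 146 against 109, 120 and 68.3 CPM, lowest in wild-type library 3, the library that was also lowest for Nr4a3. Bhlhe40, a repressor of clock genes, lay below the wild type, at 90.8, 86.5 and 92.1 against 94.9, 99.0 and 94.4 CPM.

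Of 22 chaperone genes 5 lay above all wild-type libraries and 0 below (5.99% and 5.98% of all genes tested), with a median log2 fold change of 0.05. Cryab, a small heat shock protein gene of glia, stood at 58.5, 61.0 and 57.2 against 53.0, 53.6 and 52.7 CPM, Dnajb4 at 76.1, 84.04 and 80.4 against 72.5, 73.6 and 70.9 CPM, and Dnajb1 at 39.9, 44.6 and 41.6 against 39.8, 36.8 and 33.7 CPM. Of 24 cholesterol synthesis genes 19 lay above 0 with a median of 0.06. Cyp51 there stood at 68.5, 64.5 and 55.3 against 55.4, 54.5 and 56.9 CPM, with knockout library 3 inside the wild-type range. Endothelial and pericyte markers had 19 of 23 above 0 with a median of 0.10, and Pecam1 stood at 22.9, 23.4 and 23.4 against 18.5, 21.6 and 21.1 CPM. Ependymal markers had 1 of 10 above 0 with a median of -0.33, which was 0.37 with the choroid plexus score as a covariate. Hydin, a gene of motile cilia, stood at 8.38, 9.31 and 8.23 against 11.9, 11.3 and 11.5 CPM, beside choroid plexus markers that summed to 1196, 2196 and 117 against 2424, 3302 and 1357 CPM. With the choroid plexus score as a covariate the log2 fold change of Hydin went from -0.41 to -0.35. Markers of the midbrain had 5 of 8 above 0 with a median of 0.36 and overlapping groups for each, and Tcf7l2 stood at 38.8 CPM in knockout library 1 against 5.44 to 6.71 CPM in the other libraries.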
